A study of Mus musculus with 6 samples.

Results

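Rasl11a encodes a small GTPase of the Ras superfamily, and it was examined here together with 5 related genes, Rasl11b, Rasl10a, Rasl10b, Rasl12 and Rerg. The set was built around Rasl11a, which was selected on its measured values because it had the largest fall of all genes in the AC9 cells. The other 5 were added as relatives by family, and all 6 were among the 19505 named genes on the arrays, each with 1 probe set. The samples were 393P cells, written 9393P in some labels, a mouse lung adenocarcinoma line grown in RPMI with serum. The 2 groups were cells stably transfected with AC9 and cells stably transfected with empty VECTOR, with 3 arrays (Affymetrix Clariom S) in each. The labels name puromycin or G418 as the selection drug without saying which group received which. If the groups received different drugs, drug and AC9 cannot be told apart. Whether the 3 samples of a group were grown separately is also not stated, and if they were not, the p-values rest on technical spread alone.

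Ras GTPases are molecular switches that are active with GTP bound and inactive after hydrolysing it to GDP. Exchange factors load them with GTP, GTPase-activating proteins switch them off, and effectors such as the Raf kinases bind the active form. Classical members carry a C-terminal lipid that holds them at membranes, whereas Rasl11a and Rerg lack the motif for it. In mouse cells Rasl11a has been placed in the nucleolus, where it associates with ribosomal DNA and promotes transcription by RNA polymerase I, and its human counterpart has been described as low in prostate tumours. Rerg was named for its growth-inhibiting action and its regulation by oestrogen in human breast cancer cells, and the human counterpart of Rasl10a is a nucleolar protein described as a growth inhibitor in neural tumours.

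The promoters of Rasl11a and of Rasl11b, its closest namesake, are shown because these were the only members of the set with a signal above background, and because AC9 is an enzyme of cAMP synthesis. Each sequence is from RefSeq (GRCm38.p6) and covers 250 bases before to 50 bases after the annotated gene start. Capitals mark the GC box (GGGCGG), the CCAAT box (CCAAT) and the core of the cAMP response element (TGACG), searched on both strands. The Rasl11a window is chr5:146844821-146845120 on the plus strand, and the Rasl11b window is chr5:74195076-74195375 on the plus strand.
Rasl11a: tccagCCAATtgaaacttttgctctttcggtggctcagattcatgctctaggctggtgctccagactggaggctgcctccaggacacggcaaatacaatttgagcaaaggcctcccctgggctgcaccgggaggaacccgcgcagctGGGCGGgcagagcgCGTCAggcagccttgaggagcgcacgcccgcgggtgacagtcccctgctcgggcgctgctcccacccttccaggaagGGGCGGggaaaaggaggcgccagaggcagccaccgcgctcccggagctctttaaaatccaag
Rasl11b: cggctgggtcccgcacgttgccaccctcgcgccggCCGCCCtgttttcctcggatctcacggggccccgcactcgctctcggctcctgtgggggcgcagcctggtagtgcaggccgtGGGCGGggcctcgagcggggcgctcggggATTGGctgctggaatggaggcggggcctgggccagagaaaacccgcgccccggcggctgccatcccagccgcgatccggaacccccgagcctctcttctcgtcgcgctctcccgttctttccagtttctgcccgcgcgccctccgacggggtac

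The Rasl11a window held 1 TGACG match, read as CGTCA on the printed strand and beginning 89 bases before the gene start. Of 32851 promoter windows of this length, 20.8% held such a match, so it is a common feature. The Rasl11b, Rasl10a and Rasl12 windows held 0, and 0 of these 4 windows held the full element TGACGTCA, which occurred in 1.79% of all windows. Rasl11a and Rasl11b had 2 GC boxes each, Rasl10a had 5, in which 2 overlapped by 1 base, and Rasl12 had 1, against 35.7% of all windows with at least 1. A CCAAT box was found in Rasl11a and in Rasl11b and in 37.4% of all windows, while the E-box CACGTG (7.15% of all windows) and the TATA box TATAAA (13.6%) had no match in the 4. The share of G and C was 63.7% in Rasl11a, 73.0% in Rasl11b, 72.3% in Rasl10a and 60.0% in Rasl12, against a median of 52.7% over all windows (quartiles 45.7% and 61.7%). These matches describe letters in the windows only.

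The values were log2 intensities made with RMA, which corrects for background, gives all arrays the same distribution and summarises the probes of a gene. A bound for dim signals was set for each array at the 90th percentile of 5222 negative control probe sets, 6.0 to 6.11. Between 53.6% and 55.3% of genes lay above it. Adcy9, the gene of adenylyl cyclase 9, which the gene table lists under the synonym AC9, read 6.78, 6.60 and 6.82 in AC9 cells against 6.12, 6.09 and 6.15 in VECTOR cells. Its log2 change was 0.61 (SE 0.10, limma adjusted p 0.00264), a 1.53-fold higher intensity, with the VECTOR values at about the level of the bound. With the bound at the 95th percentile of the negative controls, 6.72 to 6.90, Adcy9 lay under it on all 6 arrays. Of the markers checked, 6 of 6 epithelial genes, among them Cdh1 and Krt8, lay above the bound. Of 6 lung lineage genes 5 lay under it on all arrays, including Nkx2-1 and Sftpc, as did 4 of 4 leukocyte genes and 4 of 5 genes of endothelium and fibroblasts.

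Rasl11a lay far above the bound in VECTOR cells and was much lower in AC9 cells. It read 8.41, 8.41 and 8.20 on the AC9 arrays and 11.68, 11.61 and 11.50 on the VECTOR arrays. Every AC9 array was lower than every VECTOR array, with 3.09 log2 units between the highest AC9 and the lowest VECTOR value, while the arrays within a group spanned 0.22 in AC9 and 0.18 in VECTOR. The mean was 8.34 ± 0.12 in AC9 and 11.60 ± 0.09 in VECTOR (SD, n = 3). The log2 change was -3.26 (SE 0.10), a 9.58-fold lower intensity. The signal in AC9 cells was 10.4% of that in VECTOR cells (95% interval 8.90% to 12.2%), and it was still above the bound on all 3 arrays. The next gene in the order of falls was Grhl3, an epithelial transcription factor, at -2.97. Because the fall chose Rasl11a, it is a description without a test, and the SE and 95% interval do not allow for that choice. These are bulk samples, in which fewer cells with the transcript and less transcript per cell cannot be told apart.

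**Figure D1:**
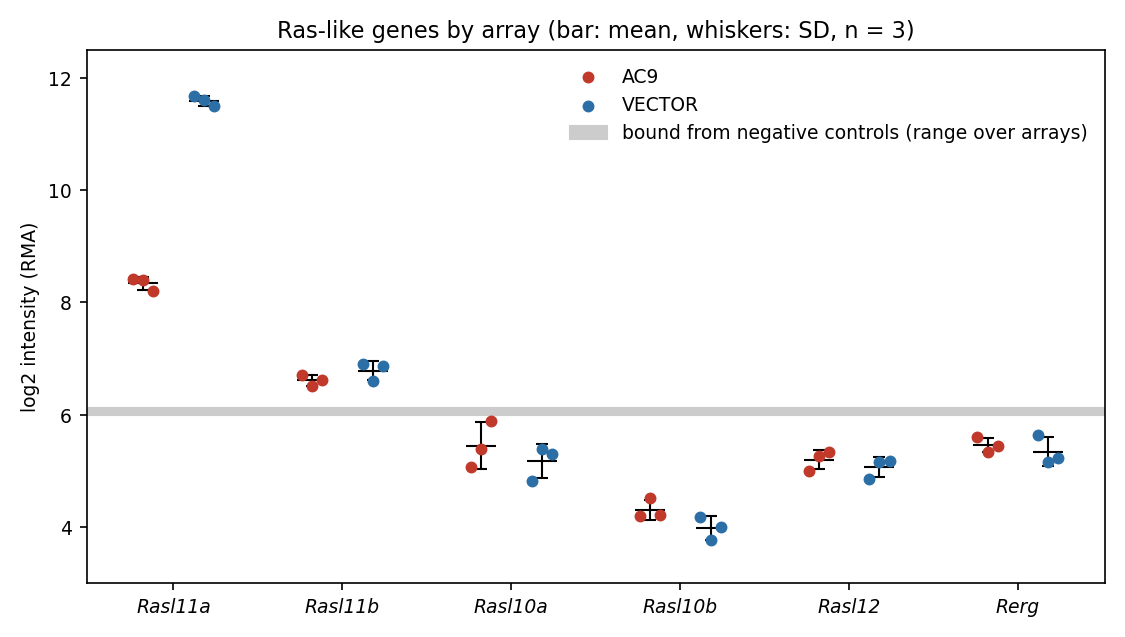
Log2 intensity (RMA) of the 6 Ras-like genes on each array, AC9 in red and VECTOR in blue, with the mean and SD of 3 arrays. The grey band spans the bound from the negative controls on the 6 arrays. Rasl11a separates by 3.09 log2 units, Rasl11b lies just above the band and the other 4 genes lie under it in both groups.

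Rasl11b, which encodes the protein nearest in name to Rasl11a, had no detectable fall. It read 6.71, 6.51 and 6.61 in AC9 cells and 6.89, 6.60 and 6.86 in VECTOR cells. The groups overlapped, and all 6 values lay above the bound. The means were 6.61 ± 0.10 in AC9 and 6.78 ± 0.16 in VECTOR (SD, n = 3), a log2 change of -0.17 with a 95% interval of -0.43 to 0.08 (SE 0.11, limma adjusted p 0.341). The interval allows a fall of up to 0.43, and the low level of Rasl11b in VECTOR cells, under 1 unit above the bound, leaves little room for a fall to be seen. With the bound at the 95th percentile of the negative controls, 6.72 to 6.90, Rasl11a stayed above it on all arrays and Rasl11b did so on 0 of 3 AC9 and 2 of 3 VECTOR arrays.

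The remaining 4 genes lay under the bound on all 6 arrays, so their changes have no size that can be read. Rasl10a read 5.06, 5.38 and 5.89 in AC9 cells and 4.82, 5.38 and 5.30 in VECTOR cells, with overlapping groups (limma adjusted p 0.447). Rasl10b read 4.19, 4.51 and 4.20 in AC9 cells and 4.18, 3.76 and 3.99 in VECTOR cells. Its groups were apart by only 0.01, and it did not pass the threshold (limma adjusted p 0.134). Rasl12 read 4.997, 5.27 and 5.33 in AC9 cells and 4.85, 5.15 and 5.17 in VECTOR cells (limma adjusted p 0.527). Rerg read 5.59, 5.34 and 5.44 in AC9 cells and 5.63, 5.16 and 5.22 in VECTOR cells (limma adjusted p 0.632). Rasl12 and Rerg overlapped between the groups. At this signal the arrays cannot show whether these 4 genes were expressed.

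Of the 6 genes, 1 passed an adjusted p of 0.05 in limma, and it was lower in AC9. Over all 19505 genes 17.6% passed, 9.29% as lower and 8.26% as higher in AC9, and nothing is read from the comparison because Rasl11a was chosen on it. Among the 5 relatives 0 passed in limma and 1, Rasl10b, had an unadjusted p under 0.05. The groups were apart for 2 of the 6 genes, against 35.1% of all genes. Without AC9 replicate 1 the number of genes past the threshold was 2174 in place of 3424. With each array left out in turn, the change of Rasl11a was between -3.31 and -3.19. As Rasl11a was chosen on these same arrays, that range is no sign of stability.

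Several genes near Rasl11a on chromosome 5 were lower in AC9 as well. That they fell by less was fixed by the choice of Rasl11a for the largest fall. In the RefSeq gene order, counting measured genes with a name, Rpl21 lies on one side of it and Gtf3a on the other. Gtf3a, the transcription factor TFIIIA required for 5S ribosomal RNA, read 10.47, 10.16 and 10.68 in AC9 cells and 11.29, 11.24 and 11.22 in VECTOR cells. All its AC9 values were below its VECTOR values, and it fell by 0.81 on the log2 scale (SE 0.13, limma adjusted p 0.00305). Rpl21, a ribosomal protein gene, read 13.06, 12.99 and 13.08 in AC9 cells and 13.21, 13.05 and 13.13 in VECTOR cells, and the groups overlapped (log2 change -0.08, limma adjusted p 0.600).

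Beyond Gtf3a, the next genes in order were Mtif3, Lnx2 and Polr1d. Mtif3, a translation initiation factor of mitochondria, fell by 0.75 (limma adjusted p 0.00125), the ubiquitin ligase gene Lnx2 by 0.58 (0.00627), and Polr1d, a subunit shared by RNA polymerases I and III, by 0.54 (0.00932), all on the log2 scale. On the other side, next after Rpl21, the deubiquitinase gene Usp12 fell by 0.58 (limma adjusted p 0.00691). Of the 10 genes within 5 places of Rasl11a, 5 passed as lower and 0 as higher, with a median change of -0.32, against 9.29% lower and a median of 0.02 over all genes. This window was chosen after its values were seen, so the counts are a description and no excess is read from them. The share over all genes also includes 8198 of 19505 that lay under the bound on all arrays. The 5 calls were kept whichever array was left out. Among the 10, the gene above the bound that ran the other way was Cdk8, a kinase of the Mediator complex, which had AC9 values above its VECTOR values (log2 change 0.52, limma adjusted p 0.0522). It passed as higher with an intensity-trended robust prior in limma (adjusted p 0.000979), with dim genes left out (0.0249), with each array centred on its median (0.0447) and without VECTOR replicate 1 (0.0468). Gpr12 and Gsx1 lay under the bound on all arrays, and Wasf3 had a change of -0.10 (adjusted p 0.570).

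**Figure D2:**
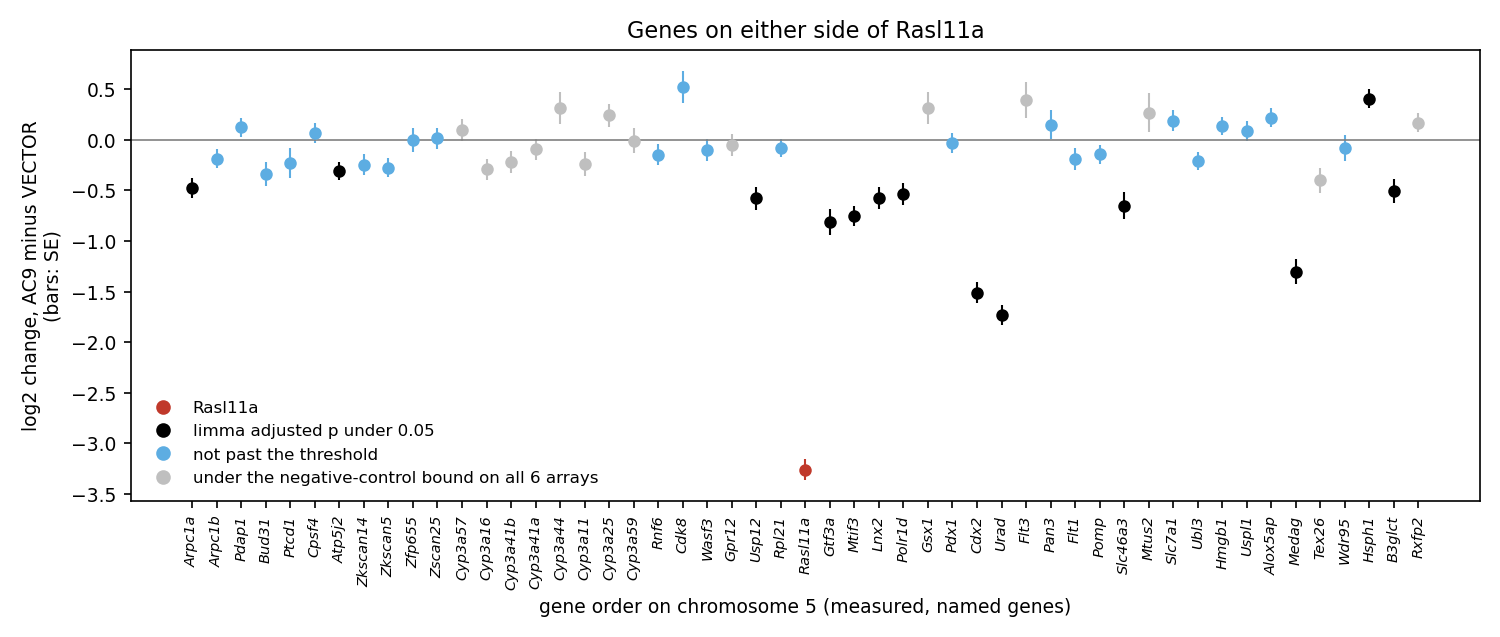
Log2 change, AC9 minus VECTOR, with SE from limma, for Rasl11a (red) and the 25 measured, named genes on each side of it in their order on chromosome 5. Black points passed an adjusted p of 0.05, blue points did not, and grey points lay under the negative-control bound on all 6 arrays. Rasl11a, chosen for the largest fall of all genes, is at -3.26. Its neighbours Gtf3a, Mtif3, Lnx2, Polr1d and Usp12 are between -0.81 and -0.54.

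Rasl11b lies on the same chromosome as Rasl11a in another region, between Usp46 (log2 change 0.16, limma adjusted p 0.440) and Scfd2, a gene of vesicle traffic, which fell by 0.55 (limma adjusted p 0.00711). Of the 10 nearest neighbours of the 5 relatives, Scfd2 alone passed, against 17.6% of all genes, and 4 of the 10 lay under the bound on all arrays. Whether the neighbours of the relatives differ from those of Rasl11a was not tested. Gas2l1 and Ewsr1 beside Rasl10a had changes of -0.29 (adjusted p 0.0676) and 0.22 (0.127), Ap2b1 beside Rasl10b had 0.08 (0.632) and Pde6h beside Rerg had -0.14 (0.509). Gas2l1 and Ewsr1 passed with an intensity-trended robust prior in limma (adjusted p 0.0163 and 0.0182), and Gas2l1 also did with dim genes left out (0.0261). The 4 under the bound were Gas2l2, Kbtbd13, Slc51b and Ptpro.

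The genes whose values over the 6 arrays followed Rasl11a most closely were found by Pearson's r among 742 genes with a range of at least 1 log2 unit and a group mean above the bound. The highest were Hes6, a transcription factor of the Hes family, at 0.999, the selenoprotein gene Selenom at 0.999, the G protein gamma subunit gene Gng7 at 0.999, the retinol carrier Rbp4 at 0.998 and the glutathione transferase Mgst3 at 0.998. Hes6 read 6.98, 7.01 and 6.80 in AC9 cells and 9.05, 9.08 and 8.91 in VECTOR cells, with the lowest value of each group on the same array numbers as in Rasl11a. Because Hes6 was chosen by its r over these arrays, this order adds nothing to the r. The lowest r belonged to the kinase Plk2, the mitotic kinesin Kif20a and the ubiquitin-conjugating enzyme Ube2c, all at -0.999, which were higher in AC9. These values describe 6 arrays that share a single group difference, and r was over 0.9 for 326 of the 742 genes. Ranking by the distance between centred profiles, which also counts the size of the change, gave Grhl3, Sptssb, Mgst1, Atoh8 and Elfn1, with 0 of 5 genes shared with the ranking by r. Gng7 and Elfn1 lay under the bound on all 3 AC9 arrays, so the size of their falls, and with it their place in either ranking, is uncertain.

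As Rasl11a was chosen for the largest fall of all genes, smaller falls in any other list were fixed in advance. The other GTPases of the Ras subfamily were therefore counted on their own. Of 26 measured, 1 passed the limma threshold, as lower, and 0 as higher, against 17.6% of all genes in either direction. The same share is the background for each list that follows, but 8198 of its 19505 genes lay under the bound on all arrays. With dim genes left out, 4307 of 11703 genes passed, a higher share. The lists of C-terminal lipid handling and RNA polymerase I below had 0 genes under the bound on all arrays. Among exchange factors 6 of 22 lay under it, among GTPase-activating proteins 2 of 17 and among effectors 5 of 25. The 17.6% is therefore a low background for every list. The changes of the 26 Ras subfamily GTPases ran from -0.64 to 0.43, with a median of 0.02, against 0.02 over all genes. The 1 that passed was Mras, a relative of the classical Ras proteins that helps to activate Raf kinases. It read 9.49, 9.60 and 9.67 in AC9 cells and 10.13, 10.31 and 10.24 in VECTOR cells, without overlap, and fell by 0.64 on the log2 scale (SE 0.10, limma adjusted p 0.00218). Nras, one of the classical Ras genes, averaged 9.54 ± 0.16 in AC9 and 9.31 ± 0.09 in VECTOR (SD, n = 3), with overlapping groups (log2 change 0.23, limma adjusted p 0.185). The count depends on the settings of the test: with an intensity-trended robust prior 10 passed, 5 of them higher, and with dim genes left out 7 did, 3 of them higher. Without VECTOR replicate 1 it was 3, and without VECTOR replicate 2 it was 4. Of the 26 genes 7 lay under the bound on all arrays.

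**Figure D3:**
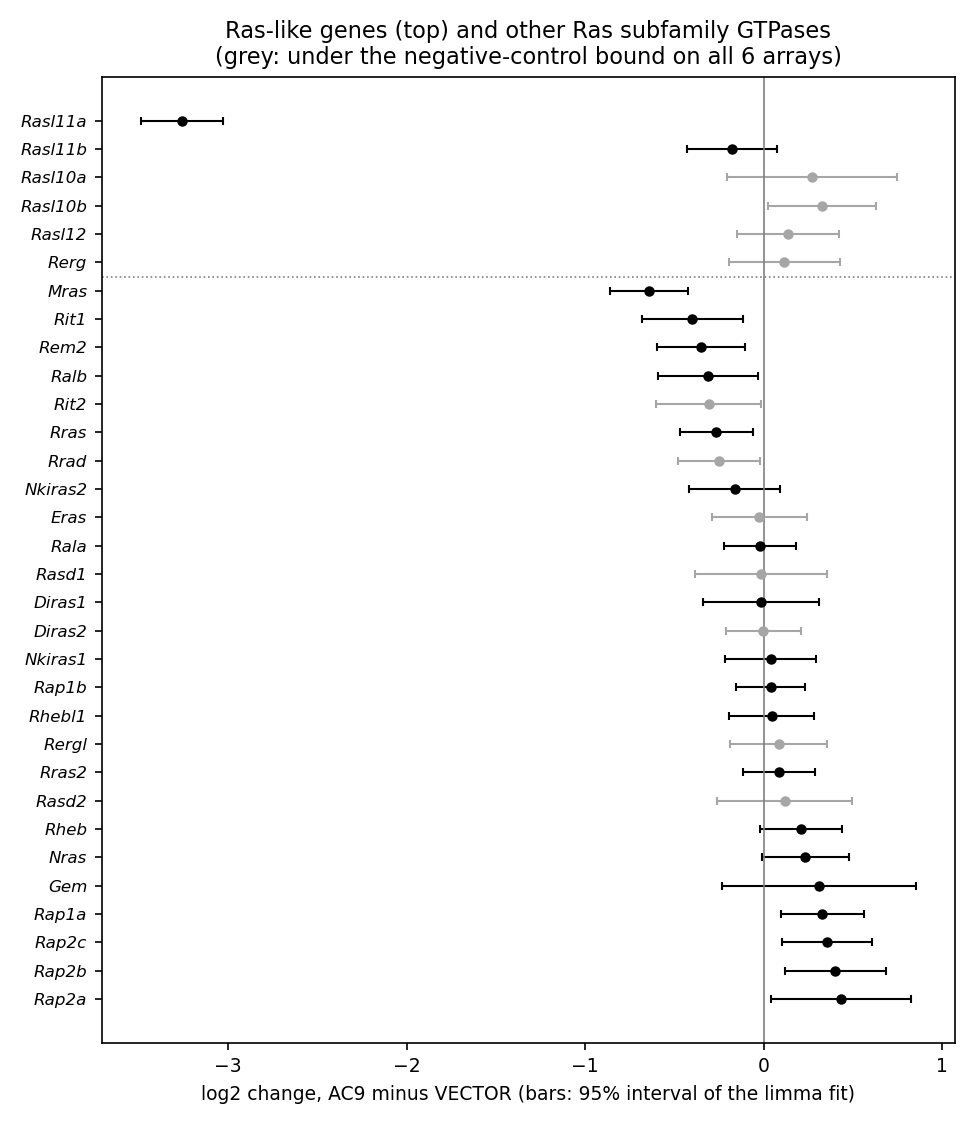
Log2 change, AC9 minus VECTOR, with the 95% interval of the limma fit (not adjusted for the number of genes), for the 6 Ras-like genes (top) and 26 other Ras subfamily GTPases. Grey genes lay under the negative-control bound on all 6 arrays. Rasl11a, chosen for the largest fall of all genes, is at -3.26. The other points run from -0.64 for Mras to 0.43 for Rap2a.

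Among regulators of Ras, Rap and Ral, 2 of 22 exchange factors passed as higher and 5 as lower in AC9, with a median of 0.10. Rasgrp3, an exchange factor activated by diacylglycerol, fell by 0.95 on the log2 scale (SE 0.12, limma adjusted p 0.000892), Rasgef1b by 0.70 (0.00222) and Ralgds, which loads Ral, by 0.66 (0.00341). Rasgrp3 read 7.81, 8.02 and 7.90 in AC9 cells and 8.78, 8.70 and 9.09 in VECTOR cells, without overlap. The count of 7 was 4, all lower, without VECTOR replicate 1 and likewise without VECTOR replicate 2. Of 17 GTPase-activating proteins, 4 rose and 1 fell, with a median of 0.12. Rasal2 rose by 0.68 (limma adjusted p 0.00609), Sipa1l2, which acts on Rap, by 0.61 (0.00581) and Rasa1 by 0.54 (0.00374).

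Of 25 effectors, 3 rose and 2 fell, with a median of 0.02. Rassf7 and Rassf2, which carry Ras association domains, fell by 0.93 (limma adjusted p 0.00159) and 0.73 (0.0133), and Rassf6 rose by 0.57 (0.0211). The call of Rassf6 was lost without AC9 replicate 2 (adjusted p 0.0540), VECTOR replicate 1 (0.0674) or VECTOR replicate 3 (0.0668). The count of 5 was 3 without AC9 replicate 2 or without VECTOR replicate 1, and 9 with an intensity-trended robust prior or with dim genes left out. Of 12 genes that attach or handle the C-terminal lipid of Ras proteins, 2 rose and 2 fell, with a median of 6.80e-05. Pggt1b, a subunit of a prenyl transferase, rose by 0.63 (limma adjusted p 0.00303) and the palmitoyltransferase Zdhhc9 by 0.44 (0.00903), while Arl2, which releases lipid-bearing cargo, fell by 0.47 (0.0118).

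RNA polymerase I transcription is the process with which mouse Rasl11a is associated. Of 14 genes of its machinery that were measured, 4 rose, 2 fell and 8 did not pass, with a median of 0.17. With an adjusted p of 0.01 as the threshold 1 passed, as lower. Besides Polr1d, which is also a neighbour of Rasl11a, Polr1b, the second largest subunit, rose by 0.46 (limma adjusted p 0.0128) and Taf1a, a subunit of the promoter factor SL1, rose by 0.47 (0.0486). Polr1b read 9.05, 9.28 and 9.29 in AC9 cells and 8.70, 8.76 and 8.79 in VECTOR cells, without overlap. Taf1a kept its call without VECTOR replicate 3 and lost it without any of the 5 other arrays (adjusted p 0.0526 to 0.146), and Polr1b did without AC9 replicate 3 (0.0532). The count of 6 was 3 without AC9 replicate 3.

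**Figure D4:**
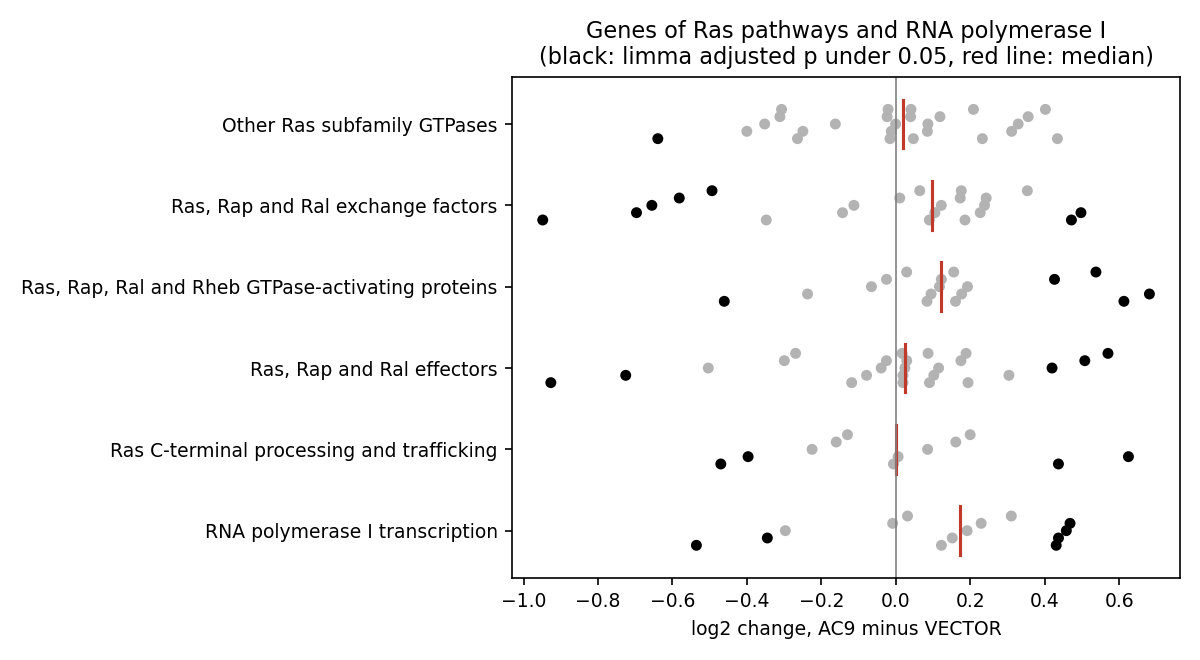
Log2 change, AC9 minus VECTOR, of the measured genes of 6 lists around Ras signalling and RNA polymerase I, 1 point per gene and with the median as a red line. Black points passed a limma adjusted p of 0.05. All points lie between -0.95 and 0.68.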

How the data were processed

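Total RNA of 3 AC9 and 3 VECTOR samples was hybridised to 1 array each. The deposited values are log2 intensities per probe set that the authors made by RMA, per the submitters' processing notes; its software, version and the genome build were not given in the sources used here. All 6 columns were matched to samples. Of 22206 probe sets that were not controls, 19572 had 1 gene symbol in GEO's platform annotation. The other 2634 had no symbol or several and were left out, without a count of each kind. All 19572 matched a RefSeq table (GRCm38.p6) by gene number. For 55 genes with several probe sets the one with the highest mean was taken, leaving 19505 genes.

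The test of AC9 against VECTOR was limma 3.58.1, run in R 4.3.3 (lmFit and eBayes, two-sided, Benjamini-Hochberg over all genes, threshold 0.05), tested on simulated data. The members, lists and naming rule were chosen with earlier results of these data known. Named are Adcy9, the members, Nras, up to 3 members past the threshold per list by size, 5 genes most and 3 least like Rasl11a, and nearest neighbours; neighbours farther off were added after their values were seen. Settings tried were another prior, normalization, centring, dim filter, probe set rule, array weights, replicate block, stricter threshold and each array left out.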

Additional observations from a re-analysis of the deposited data

How the results depend on the processing

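Rasl11a kept its direction under every setting tried, at -3.27 to -3.24 on the log2 scale apart from the values with an array left out; as it was chosen for this fall, that is no sign of stability. The 5 relatives kept their direction and stayed short of the threshold wherever they were tested; with dim genes left out, 4 of them were not. With an adjusted p of 0.01, 1670 of all genes passed, 4 of the exchange factors, 2 of the effectors, 2 of the C-terminal processing genes and 1 of the RNA polymerase I genes. The other Ras subfamily GTPases gave 10 calls with an intensity-trended robust prior, 7 with dim genes left out, 4 with each array centred on its median, and 3 with repeated quantile normalization, with array weights or with the replicate number as a block. The effectors gave 9 calls with the trended prior or with dim genes left out. Leaving out 1 array in turn gave 2174 to 3025 genes in all, 1 to 4 other Ras subfamily GTPases, 4 to 7 exchange factors, 3 to 5 effectors and 3 to 5 RNA polymerase I genes. The cause of these differences was not tested. With the 95th percentile of the negative controls as the bound, 1 member lay above it on all arrays in place of 2. Ranking by distance in place of r shared 0 of the 5 most similar genes. The replicate number did not pair the samples: deviations of same-numbered arrays correlated at 0.01, 0.08 and 0.01 across genes, and with the number as a block 3062 genes passed. For 58 other genes named in the text that had a signal above the bound in at least 1 group, 14 settings gave 812 values, of which 769 kept their call and 0 changed direction. Signals near the bound limit what can be seen for 5 of the 6 members.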

Other observations

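Farther along chromosome 5 from Rasl11a, past Polr1d, 3 more genes fell by over 1 log2 unit in AC9 cells; this wider stretch was chosen after its values were seen. Cdx2, a homeobox transcription factor of the intestine, is the 7th measured, named gene after Rasl11a. It read 10.01, 10.25 and 10.14 in AC9 cells and 11.61, 11.78 and 11.54 in VECTOR cells, a log2 change of -1.51 (SE 0.11, limma adjusted p 3.71e-05). Urad, beside Cdx2 and an enzyme gene of uric acid breakdown, read 5.68, 5.50 and 5.44 in AC9 cells and 7.31, 7.21 and 7.29 in VECTOR cells. Its AC9 values were under the negative-control bound, so it was at least 2.26-fold lower (limma adjusted p 1.37e-05). Medag, 20 places from Rasl11a, fell by 1.30 on the log2 scale (limma adjusted p 0.000198). All 3 had AC9 values below their VECTOR values.

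The stretch was not lower throughout. Pan3, Flt1 and Pomp, which lie between Urad and Medag, had changes of 0.15, -0.20 and -0.14 and did not pass (limma adjusted p 0.544, 0.270 and 0.356). Slc46a3, next after Pomp, passed as lower (limma adjusted p 0.00904) under every setting tried, but it lay under the bound on all AC9 arrays and on 2 of 3 VECTOR arrays, so its fall has no size that can be read. Farther on, Hsph1 rose by 0.41 (0.0189), a call lost without AC9 replicate 1 (0.0717), AC9 replicate 2 (0.0627) or VECTOR replicate 2 (0.0599). B3glct, beside Hsph1, fell by 0.51 (limma adjusted p 0.0192), a call lost without AC9 replicate 1 (0.0544), AC9 replicate 3 (0.0714), VECTOR replicate 2 (0.0601) or VECTOR replicate 3 (0.0518). Of the 25 genes after Rasl11a, 9 passed as lower and 1 as higher, and of the 25 before it 3 (Usp12, Arpc1a and Atp5j2) and 0, against 9.29% lower and 8.26% higher of all genes. Under the bound on all arrays lay 5 of the 25 after and 9 of the 25 before, so fewer genes before it could be called. The median change was -0.14 after and -0.10 before. Whether the sides differ was not tested. Atp5j2 did not pass when any 1 of the 6 arrays was left out (limma adjusted p 0.0677 to 0.130). Without AC9 replicate 1 the count over both sides was 10 in place of 13. Whether the falls of Rasl11a and its neighbours share an origin was not tested.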
